A study of Arabidopsis thaliana with 6 samples.

Results

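The trehalose phosphate phosphatase (TPP) family of Arabidopsis thaliana comprised 10 genes, TPPA to TPPJ, selected by gene identifier from the 33341 genes in the count files. Of these, 8 genes had more than 10 reads in at least 2 libraries and were among the 20013 genes tested, and TPPB and TPPC were not. The family was chosen with its difference between the AP3 and AG libraries in view, so that difference is described below without a test. The study sorted nuclei of a floral induction system, in which a steroid-activated AP1 protein starts flower development synchronously, from whole inflorescences and measured their RNA. All plants were Ler and carried pAP1::AP1-GR in the ap1 cal double mutant. All were treated daily with 2 µM dexamethasone and were at stage 5 of flower development. In addition, plants of the AP3 group carried pAP3:NTF(GFP), and plants of the AG group carried iAG:NTF(GFP). NTF is a nuclear envelope protein with GFP, so nuclei were sorted by the activity of the driving sequence. This was the AP3 promoter in the first group and the second intron of AG with a minimal 35S promoter in the other.

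There were 3 AP3 libraries (X13, X16 and X74) and 3 AG libraries (X14, X71 and X26), with 28808948 to 42089156 counted read pairs each. X74 and X71 had reads in more genes (26717 and 26489) than the other 4 libraries (22923 to 23439). The authors call the replicates of each sorted domain biological. The labels name no separate cultures or plants for the libraries, so p-values measure the spread between these samples, part of which may be technical. Of the genes that mark the sorted domains, UFO was at 63.8 to 66.5 CPM (reads scaled to a common library size) in AP3 libraries and 3.05 to 7.60 in AG libraries. AP3 itself was at 126 to 239 CPM in AP3 libraries and 12.2 to 58.1 CPM in AG libraries. PI was at 125 to 189 CPM in AP3 libraries and 22.3 to 85.5 CPM in AG libraries. The AG transcript went against the labels: it was at 41.5 CPM (X13), 75.4 (X16) and 94.3 (X74) in AP3 libraries and at 38.4 CPM (X14), 41.2 (X71) and 14.2 (X26) in AG libraries. The names AP3 and AG libraries below are therefore the names the labels give. Wherever 3 values are given for a group, they stand in the order X13, X16, X74 for AP3 and X14, X71, X26 for AG.

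Trehalose 6-phosphate is a signal of sucrose supply in plants. TREHALOSE-6-PHOSPHATE SYNTHASE 1 (TPS1) makes it from UDP-glucose and glucose 6-phosphate, TPP enzymes remove its phosphate to give trehalose, and trehalase (TRE1) splits trehalose into glucose. The signal inhibits the SnRK1 kinase, which adjusts metabolism and growth when carbon is short, and it takes part in the control of flowering and of shoot branching. In maize, the TPP gene RAMOSA3 controls the branching of the inflorescence.

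TPP enzymes belong to the haloacid dehalogenase superfamily, whose first motif holds a pair of aspartates that carry out catalysis. The coding stretch around this motif is shown for all 10 genes because it shows that the genes with hardly any reads had an intact motif in the reference as well. Sequences are from the RefSeq annotation of TAIR10.1, the Columbia reference, and not from the Ler plants. The codons of both aspartates are in capitals.
TPPA (chr5:20902732-20902758, plus strand): tttcttGATtatGACgggacactttcg
TPPB (chr1:29374403-29374429, plus strand): tttcttGATtacGACggaactctttct
TPPC (chr1:7841991-7842017, plus strand): tttcttGATtacGACggaactctctcg
TPPD (chr1:13364594-13364620, minus strand): tttctcGACtatGACggtacattatcc
TPPE (chr2:9435952-9435978, minus strand): tttcttGATtatGATggtactctctct
TPPF (chr4:7366916-7366942, minus strand): tttctaGATtatGATggtactctttct
TPPG (chr4:11894921-11894947, minus strand): tttctaGATtatGATggaacactttct
TPPH (chr4:18450735-18450761, minus strand): ttcttgGATtatGATggcactttatct
TPPI (chr5:3158410-3158436, plus strand): tttcttGATtatGACggtactctctct
TPPJ (chr5:26021604-26021630, minus strand): tttcttGATtatGACggtactctttct

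All 10 genes had both codons in frame. Between pairs of members, the coding sequences were 55.3% to 82.6% identical (median 62.5% over 45 pairs). The closest pairs were TPPF and TPPG (82.6%), TPPE and TPPH (80.8%), TPPI and TPPJ (78.2%) and TPPB and TPPC (74.3%). The authors kept uniquely mapped reads, so read pairs in stretches identical between close copies could have been lost.

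Among the members, TPPH (AT4G39770, chromosome 4, 18448865 to 18451305, minus strand, 12 exons) had the largest difference between the groups. It was at 0.412, 0.986 and 0.187 CPM in the AP3 libraries, from 15, 30 and 7 reads. It was at 16.3, 13.4 and 29.1 CPM in the AG libraries, from 441, 452 and 925 reads. Every AG library was thus above every AP3 library, and the lowest AG value was 13.6 times the highest AP3 value. The fitted log2 fold change (AP3 over AG, so that negative values mean a higher level in AG libraries) was -5.23 (SE 0.59), a level 37.6-fold higher in AG libraries. Without X16, which had the most TPPH reads of the AP3 libraries, this value was 65.4-fold. It was 28.3-fold without X74 and 28.4-fold without X26. In sorted bulk nuclei, fewer cells of a type and less RNA per cell cannot be told apart.

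TPPA (AT5G51460, chromosome 5, 20900859 to 20904647, plus strand, 11 exons) was the only member whose AP3 libraries were all above its AG libraries. Its levels were 41.6, 37.1 and 33.1 CPM in the AP3 libraries and 25.2, 18.5 and 22.9 CPM in the AG libraries. The groups did not overlap, but the lowest AP3 value was only 1.32 times the highest AG value. The log2 fold change was 0.75 (SE 0.19). TPPA shares 70 bp at its 3′ end with the gene AT5G51465 on the other strand, and the counts ignore strand. AT5G51465 itself had 2 reads in X74 and none in the other 5 libraries.

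**Figure D1:**
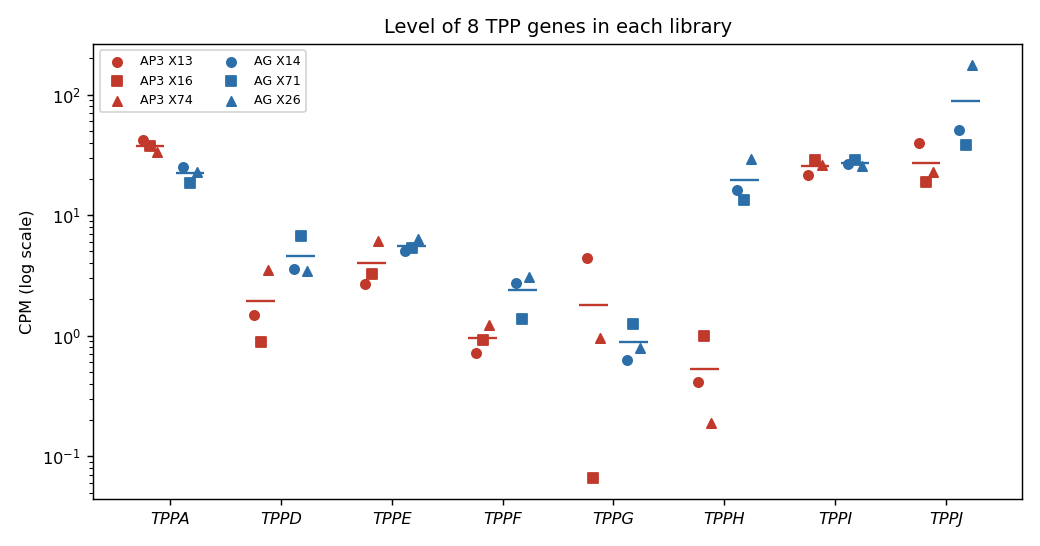
CPM on a log scale of the 8 TPP genes past the read filter, with each library as a point (red, AP3 libraries; blue, AG libraries) and group means as lines. TPPH lay below 1 CPM in all AP3 libraries and at 13.4 CPM or more in all AG libraries, whereas the levels of TPPI nearly coincided.

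TPPJ (AT5G65140, chromosome 5, 26019457 to 26022380, minus strand) was at 39.5, 18.7 and 22.9 CPM in the AP3 libraries and at 50.4, 38.3 and 177 CPM in the AG libraries. The groups overlapped, since X13 was above X71, and X26 stood far above the other 5 libraries. The log2 fold change was -1.71 (SE 0.55), and -0.72 without X26. TPPI (AT5G10100), the closest relative of TPPJ, was at 21.4, 28.5 and 26.1 CPM in the AP3 libraries and at 26.6, 28.6 and 25.6 CPM in the AG libraries. These ranges overlapped almost fully, with a log2 fold change of -0.09 (SE 0.18).

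TPPF (AT4G12430) was low throughout, at 0.714, 0.921 and 1.23 CPM in the AP3 libraries and 2.73, 1.36 and 3.05 CPM in the AG libraries. All AG values were above all AP3 values, X71 by only 1.11 times over X74, and the log2 fold change was -1.31 (SE 0.49). TPPG (AT4G22590), the closest relative of TPPF, had 160, 2 and 36 reads in the AP3 libraries and 17, 42 and 25 reads in the AG libraries. A single library, X13, decided the sign of its log2 fold change, which was 1.03 (SE 1.03) with X13 and -0.75 without it.

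TPPD (AT1G35910) was at 1.48, 0.888 and 3.50 CPM in the AP3 libraries and at 3.58, 6.70 and 3.43 CPM in the AG libraries, with a log2 fold change of -1.22 (SE 0.55), and -1.94 without X74. Within each group its highest level was in the library with reads in the most genes, X74 or X71. Among the other 4 libraries the AG values (3.43 and 3.58 CPM) were above the AP3 values (0.888 and 1.48 CPM), and X71 was 1.91 times X74. TPPE (AT2G22190) was at 2.69, 3.25 and 6.05 CPM in the AP3 libraries and at 5.02, 5.33 and 6.35 CPM in the AG libraries, with a log2 fold change of -0.48 (SE 0.38). Here X74 was above X71, against the order in the other 4 libraries.

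TPPB (AT1G78090) had 3, 3 and 5 reads in the AP3 libraries and 13, 2 and 6 reads in the AG libraries. TPPC (AT1G22210) had 1, 1 and 0 reads in the AP3 libraries and 2, 2 and 0 in the AG libraries. A count of 0 allows up to 3 reads, or 0.0802 CPM in X74 and 0.0944 CPM in X26, by counting error only. No fold change is given for either gene.

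Counted over the family, the fit across all genes called 2 of the 8 members tested at an adjusted p under 0.05 by edgeR's quasi-likelihood test, against 7.76% of all genes. TPPA was called higher in AP3 libraries, as were 1.36% of all genes, and TPPH lower, as were 6.4%. The groups did not overlap for 3 of the 8 members, against 25.9% of all genes. AP3 libraries were all above for TPPA (10.9% of all genes) and all below for TPPH and TPPF (15%). The median log2 fold change was -0.85 over the 8 members and 0.03 over the 20013 genes. Because these comparisons chose the family, nothing further is read from the counts. With any single library left out, this count of called members was 1.

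**Figure D2:**
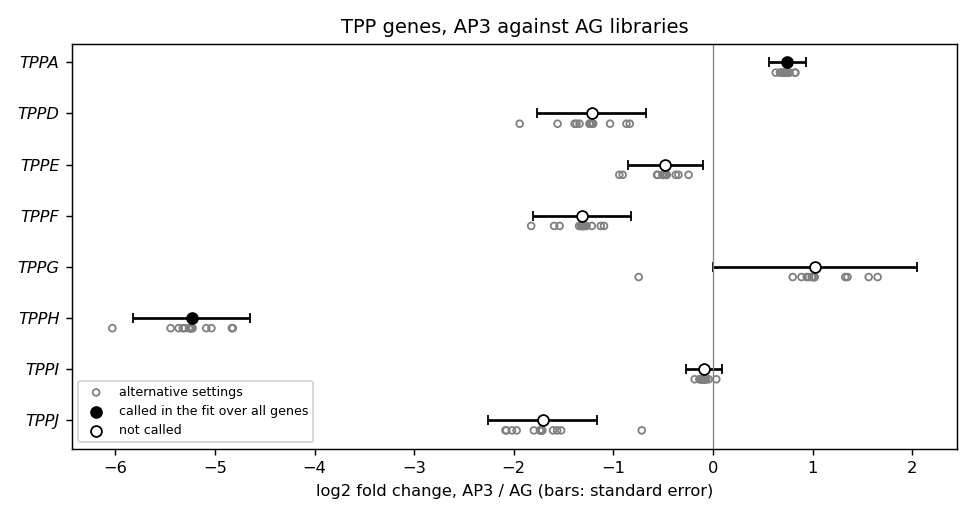
Log2 fold change (AP3 over AG) of the 8 TPP genes past the read filter, with standard errors as bars, filled where the fit over all genes called the gene; grey circles are alternative settings. TPPH lay between -6.03 and -4.82 under all of them, and the grey circle of TPPG at -0.75 is the fit without X13.

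The levels of the members relative to each other did not enter the choice of the family and were tested. Levels were compared as RPKM, the CPM per kilobase of the whole gene, since the counts include introns. By mean log2 level the order was TPPJ, TPPA, TPPI, TPPE, TPPD, TPPH, TPPF, TPPG, TPPB and TPPC. TPPJ had a mean RPKM of 19.8 (range 6.39 to 60.5 over the 6 libraries), TPPA 7.85 (4.90 to 11.0) and TPPI 6.50 (5.32 to 7.11). TPPE (1.57) and TPPD (1.48) followed by mean log2 level. TPPH had a mean RPKM of 4.12, above both, but ranged from 0.0767 to 11.9, so its place in an order pooled over the groups describes neither group. TPPF (0.480), TPPG (0.452), TPPB (0.0612) and TPPC (0.0123) had the lowest means.

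Of the 45 pairs of members, 29 had the same order in all 6 libraries. Each of these had p = 0.0312 in a two-sided exact permutation test of the within-library difference, the smallest p that 6 libraries allow. The adjusted p of this test over the 45 pairs was 0.0485. It rests on how many pairs kept their order, and not on the size of any difference. Of neighbours in the order, only TPPI and TPPE passed this exact permutation test, with TPPI higher by 2.11 ± 0.46 on the log2 scale (SD, n = 6). The other 8 neighbouring pairs did not pass, with adjusted p from 0.0827 (TPPG and TPPB) to 1 (TPPD and TPPH) in the same exact test. That test pools the groups, so a difference between the groups counts in it as spread. TPPJ over TPPA, for example, was 0.653 to 1.23 in AP3 libraries and 2.60 to 10.0 in AG libraries. TPPH was above TPPA in every AG library (6.66, 5.49 and 11.9 against 6.64, 4.90 and 6.05 RPKM) and below it in every AP3 library. TPPJ, TPPA and TPPI, the upper 3 in the pooled order, together held 81.5% ± 8.79 (SD, n = 6) of the RPKM of the family over both groups. Their share was 89.6%, 91.3% and 84.1% in the AP3 libraries and 73.3%, 69.3% and 81.3% in the AG libraries. These values did not overlap between the groups.

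The shares of TPPA and TPPH in the family did not overlap between the groups. TPPA held 33.0%, 38.4% and 31.8% of the family RPKM in the AP3 libraries and 16.0%, 13.5% and 6.75% in the AG libraries. TPPH held 0.508%, 1.59% and 0.280% in the AP3 libraries and 16.0%, 15.2% and 13.3% in the AG libraries. TPPH thus took a similar share in the 3 AG libraries, although its CPM in X26 was well above that in the other AG libraries. TPPJ took 67.5% of the family RPKM in X26 and 25.1% to 41.4% in the other 5 libraries. TPPI took 7.10% in X26 and 15.9% to 27.9% elsewhere. The shares use the same reads as the choice of the family and are given as a description.

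**Figure D3:**
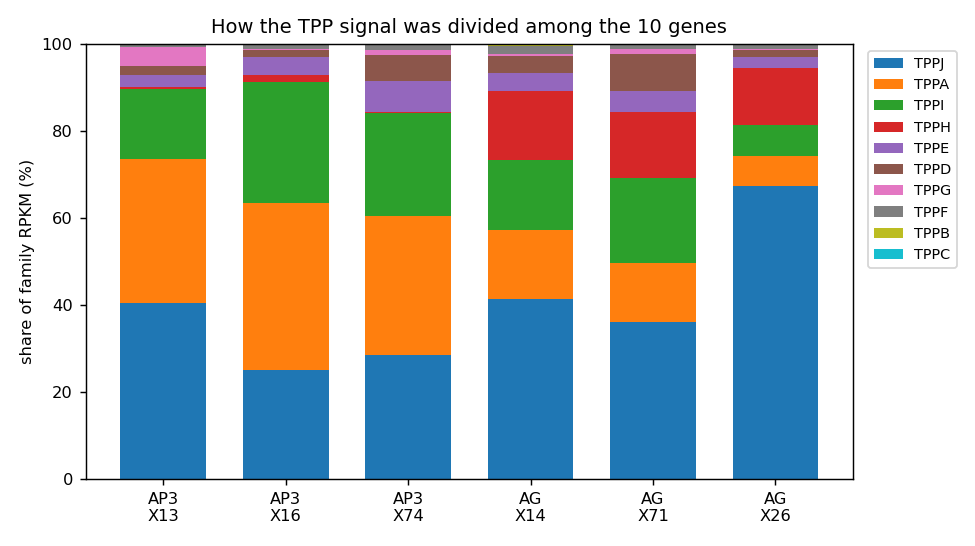
Share of the family RPKM (%) held by each TPP gene in each library, as stacked bars. TPPA (orange) took 31.8% to 38.4% in the AP3 libraries and 6.75% to 16.0% in the AG libraries, and TPPH (red) 0.280% to 1.59% and 13.3% to 16.0%.

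Close relatives were set side by side as ratios of RPKM. TPPH over TPPE was 0.191, 0.378 and 0.0386 in the AP3 libraries and 4.04, 3.13 and 5.71 in the AG libraries, so TPPE was the more abundant of this pair in every AP3 library and TPPH in every AG library. TPPJ over TPPI was 0.899 to 2.54 in AP3 libraries and 1.84 to 9.50 in AG libraries, which overlapped. TPPG over TPPF ran from 0.0832 to 7.17 within the AP3 libraries alone.

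The table of variance stabilized values that the authors made from X13, X16, X14 and X26, on a log2-like scale, lists 8 members and neither TPPB nor TPPC. It gives TPPH 7.41 in X13, 7.66 in X16, 9.51 in X14 and 10.2 in X26. Differences of these values are not log2 fold changes, and the edgeR fit of the same 4 libraries gave -5.04 for TPPH. TPPA is given as 10.6 and 10.5 in X13 and X16 and as 9.98 and 9.90 in X14 and X26. TPPJ is given as 10.5 and 9.67 in X13 and X16 and as 10.8 and 12.5 in X14 and X26. In X74 and X71, which are not in that table, TPPH was at 0.187 and 13.4 CPM, a ratio of 71.5.

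The 250 bases upstream of the annotated start are shown for TPPH and TPPA, the members called in each direction, and for TPPJ, the member with the highest mean RPKM over the 6 libraries. Matches, on either strand, to 6 motifs were searched. They included the G-box CACGTG, the ACGTG core of abscisic acid response elements, and the sugar-related motifs TATCCA and TTATCC. The others were CCANTG, in which N is any base, and the CArG box that MADS-domain proteins bind. Matched letters are in capitals.
TPPH (chr4:18451306-18451555, minus strand): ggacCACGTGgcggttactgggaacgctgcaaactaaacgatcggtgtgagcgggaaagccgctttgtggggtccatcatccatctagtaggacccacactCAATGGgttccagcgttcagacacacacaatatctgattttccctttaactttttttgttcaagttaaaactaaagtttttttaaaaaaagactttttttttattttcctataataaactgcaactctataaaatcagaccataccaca
TPPA (chr5:20900609-20900858, plus strand): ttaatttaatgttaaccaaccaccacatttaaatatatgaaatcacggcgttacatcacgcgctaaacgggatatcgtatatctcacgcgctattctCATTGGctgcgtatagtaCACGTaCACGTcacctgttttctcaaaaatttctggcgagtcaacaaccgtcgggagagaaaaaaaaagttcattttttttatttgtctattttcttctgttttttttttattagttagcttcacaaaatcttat
TPPJ (chr5:26022381-26022630, minus strand): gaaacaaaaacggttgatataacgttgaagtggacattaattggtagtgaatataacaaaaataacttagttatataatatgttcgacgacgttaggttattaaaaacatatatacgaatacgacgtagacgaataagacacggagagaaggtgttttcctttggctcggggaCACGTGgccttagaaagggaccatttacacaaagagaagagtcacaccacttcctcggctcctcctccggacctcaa

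The G-box was in the windows of TPPE, TPPH and TPPJ, 3 of the 10 members, and in 6.49% of the windows of 27443 protein-coding genes. Every G-box also holds ACGTG on both strands. ACGTG was in 8 of 10 members, all but TPPC and TPPD, and in 22.9% of all windows. CCANTG was in 5 members (TPPA, TPPB, TPPC, TPPE and TPPH) against 20.8% of windows. TATCCA was in TPPE (13.6% of windows), and TTATCC (12.5%) and the CArG box (2.52%) were in no member. The window of TPPA holds ACGTG 2 times and no G-box. These matches are descriptions of letters in a window, and binding was not measured.

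TPPE and TPPH share a stretch around the G-box, shown because these close relatives had opposite orders of level in the groups. It was chosen by eye after the windows had been read. Over 32 bases, 28 are the same, shown in capitals. The stretch lies 85 to 54 bases before the start of TPPE and 250 to 219 bases before that of TPPH. It begins at the edge of the TPPH window, and sequence beyond that edge was not compared.
TPPE (chr2:9436712-9436743, minus strand): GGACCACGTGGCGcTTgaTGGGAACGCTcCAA
TPPH (chr4:18451524-18451555, minus strand): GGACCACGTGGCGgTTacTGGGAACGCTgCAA

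The other genes of trehalose 6-phosphate and sucrose sensing were taken from lists of 35 genes, of which 32 were tested. By edgeR's quasi-likelihood test, 1 was higher and 2 were lower in AP3 libraries and 29 were not called, beside 7.76% of all genes called, 1.36% higher and 6.4% lower. Their median log2 fold change was 0.01. TPS1, the synthase that feeds the TPP reaction, was at 25.9, 26.1 and 31.3 CPM in the AP3 libraries and at 62.1, 77.6 and 157 CPM in the AG libraries. Every AG library was above every AP3 library, with a log2 fold change of -1.83 (SE 0.33, edgeR adjusted p = 0.0101). Over the 15 alternatives the adjusted p ran from 1.32e-06 with DESeq2 to 0.0548 with edgeR without X16, which ended the call. The RPKM of the TPP family over that of TPS1 was 11.0, 8.38 and 7.52 in the AP3 libraries and 5.75, 4.00 and 4.89 in the AG libraries. The other class I synthases TPS2, TPS3 and TPS4 had 0 to 6 reads in any library and were not tested.

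Of the 7 class II TPS genes, which encode proteins related to TPS1 that have both a synthase-like and a phosphatase-like domain, none was called by edgeR (1 at an unadjusted p under 0.05, and 1 by DESeq2), and their median log2 fold change was 0.21. TPS8 (chosen after its values were seen) was at 46.8 to 51.8 CPM in AP3 and 27.2 to 36.0 CPM in AG libraries, with a log2 fold change of 0.64 (SE 0.17) and an edgeR adjusted p of 0.0505. It was called by DESeq2 with an adjusted p of 0.0121. TRE1 was at 5.13, 7.07 and 8.69 CPM in the AP3 libraries and at 3.98, 12.4 and 5.51 CPM in the AG libraries. Its AG values enclosed its AP3 values, with a log2 fold change of -0.07 (SE 0.43, edgeR adjusted p = 0.960).

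Sucrose synthases split sucrose into fructose and UDP-glucose, a substrate of TPS1, and 2 of the 6 were called. SUS6 was at 24.8, 14.5 and 15.4 CPM in the AP3 libraries and at 6.16, 4.50 and 4.03 CPM in the AG libraries, with a log2 fold change of 1.90 (SE 0.30, edgeR adjusted p = 0.00599, at most 0.0311 over 15 alternatives). It was called under all 15. SUS5 went the other way, at 0.192, 0.592 and 0.241 CPM in the AP3 libraries and 3.50, 1.24 and 4.09 CPM in the AG libraries. Its log2 fold change was -3.11 (SE 0.67, edgeR adjusted p = 0.0230). Without X16 it was -3.75, and the call was lost without X13, X74, X14 or X26, with an adjusted p of up to 0.0783. None of the 6 SnRK1 subunits, the 9 SnRK1 and starvation responsive genes or the 2 UDP-glucose pyrophosphorylases was called by edgeR, with median log2 fold changes of 0.00, -0.04 and -0.12. At an unadjusted p under 0.05, edgeR gave 1 of the responsive genes and 0 of the other 8, and DESeq2 called 0 in these lists. DIN6 (chosen after its values were seen), a starvation-induced asparagine synthetase gene, had 3, 2 and 63 reads in the AP3 libraries and 45, 32 and 31 in the AG libraries. Its log2 fold change was -0.95 (SE 1.04, edgeR adjusted p = 0.715) with X74 and -3.93 without it, where edgeR called it (adjusted p = 0.0177). It was also called with the 4 libraries of the authors' table, which leave out X74.

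**Figure D4:**
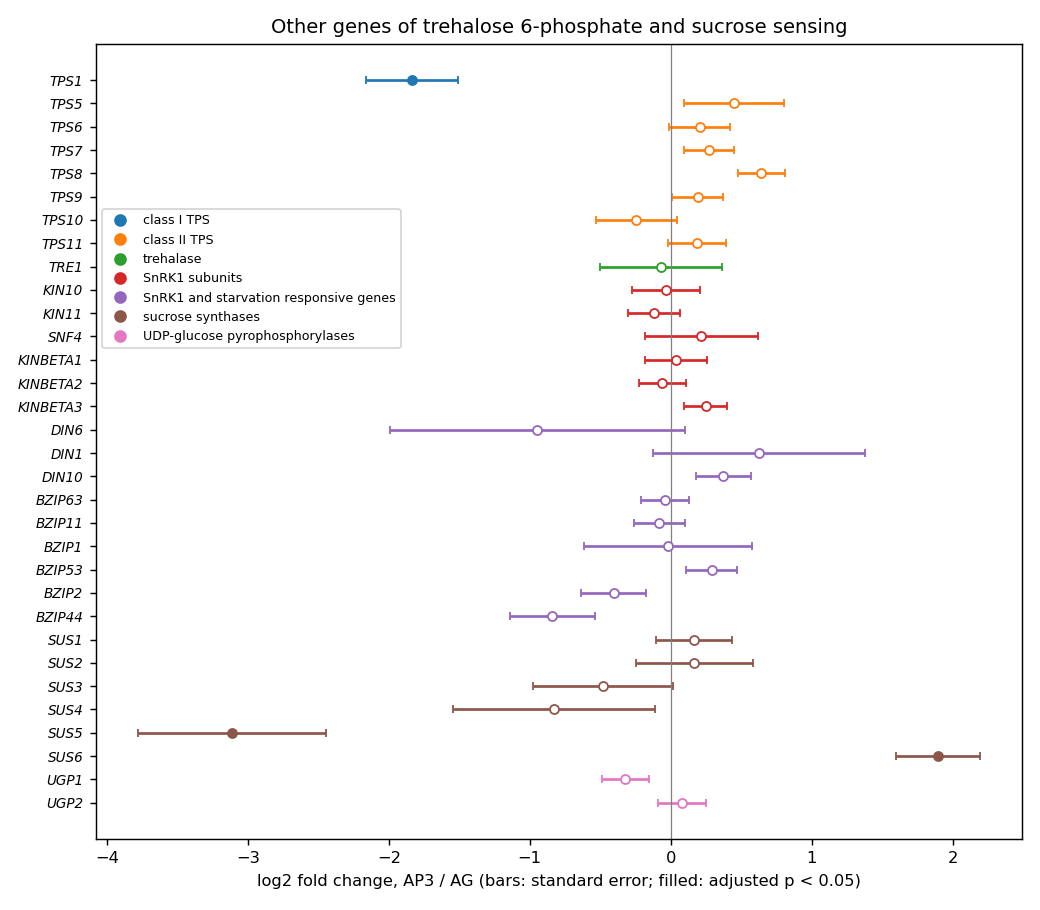
Log2 fold change (AP3 over AG) with standard errors for the 32 tested genes of trehalose 6-phosphate and sucrose sensing outside the TPP family, coloured by list and filled where the edgeR adjusted p was under 0.05. TPS1 (-1.83) and SUS5 (-3.11) lay to the left and SUS6 (1.90) to the right, and TPS8 (0.64) lay farthest from 0 among the class II TPS genes.

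Markers of other cell types differed between the same libraries as TPPH, TPPA and TPS1. Phloem markers summed to 72.1 to 125 CPM in AP3 libraries and 186 to 329 CPM in AG libraries, and 6 of the 8 tested of 10 were called lower in AP3 libraries. Xylem markers summed to 39.7 to 46.5 and 145 to 220 CPM (7 of 9 tested of 10 lower), and procambium markers to 151 to 210 and 433 to 447 CPM (3 of 5 lower). Of the defining markers, none was at 0 in every library: the phloem gene APL was at 1.98 to 2.67 CPM in AP3 libraries and 32.6 to 34.9 CPM in AG libraries, and the xylem gene LAC17 was at 0 in 5 libraries. Epidermis markers summed to 3813 to 4970 CPM in AP3 libraries and 1126 to 2334 CPM in AG libraries (2 of 7 higher). X26, with the highest TPPH, TPPJ and TPS1, also had the highest phloem sum but the lowest xylem sum of the AG libraries. Single genes weigh heavily in these plain sums. ACL5 was at 112, 160 and 75.4 CPM in X14, X71 and X26, of xylem sums of 180, 220 and 145 CPM. The xylem sums also include CESA4, at 23.7 to 31.1 CPM in AP3 libraries and 20.4 to 31.0 CPM in AG libraries. CESA7 was at 2.43 to 8.89 CPM in AP3 libraries and 6.84 to 6.95 CPM in AG libraries. Both genes overlapped between the groups, and neither was called by edgeR. The phloem sums of the AG libraries include OPS (28.1 to 95.8 CPM) and CVP2 (65.7 to 95.3 CPM), neither called by edgeR. PDF1 was at 2897 to 3467 CPM in the AP3 libraries, within the epidermis sum. Organ boundary markers (3 of 6 higher in AP3 libraries, 143 to 248 against 91.6 to 120 CPM), dividing cell markers (1 of 5 higher, 2692 to 2818 against 1586 to 2087 CPM) and stomatal lineage markers (1 of 5 lower, 32.7 to 54.0 against 64.1 to 75.9 CPM) had sums that did not overlap either. Mesophyll markers overlapped (2068 to 3366 and 2065 to 3134 CPM, 0 of 6 called by edgeR, 1 at an unadjusted p under 0.05, and 0 by DESeq2). Of the dividing cell markers, CDC20.2, not called by edgeR, was at 1942 to 2056 CPM in AP3 libraries and 1126 to 1484 CPM in AG libraries. Beside these counts of markers, 1.36% of all genes were called higher and 6.4% lower in AP3 libraries. The groups did not overlap for 25.9% of all genes. The part of these cell types in the levels of the TPP genes was not tested.

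**Figure D5:**
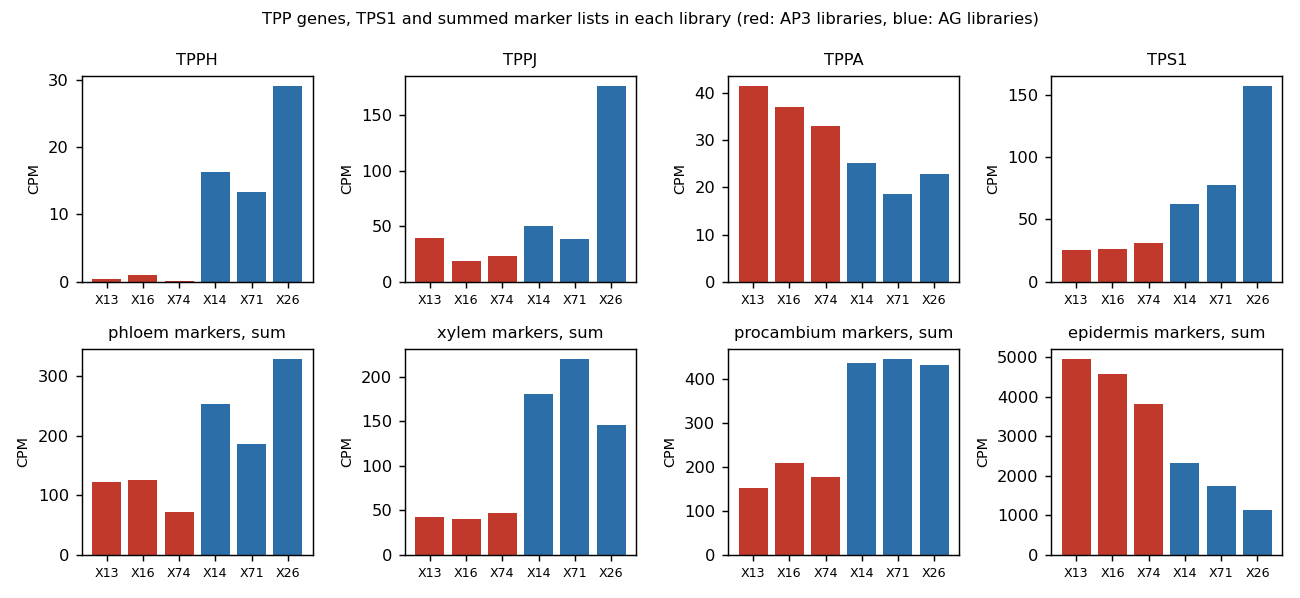
CPM of TPPH, TPPJ, TPPA and TPS1 (upper row) and summed CPM of phloem, xylem, procambium and epidermis markers (lower row) in each library, as bars from 0 (red, AP3 libraries; blue, AG libraries). Phloem, xylem and procambium sums were higher in every AG library, as were TPPH and TPS1, and the epidermis sum was higher in every AP3 library, as was TPPA.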

How the data were processed

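Nuclear RNA of sorted nuclei was amplified with SMART-Seq v4 and made into libraries with ThruPLEX. The authors trimmed the reads, mapped them to TAIR10 with STAR 2.7.0b and deposited counts of read pairs per gene, made with featureCounts 1.6.0 per the file headers over whole genes and without strand, so intronic reads of nuclear RNA were included. The authors also deposited variance stabilized values from DESeq2 1.24.0 on a log2-like scale for 4 libraries, which were printed but not tested. Here, a gene entered the test when 2 or more libraries each had over 10 reads of it, organelle genes (2.39% to 4.56% of counts) being removed first, and the test was run with edgeR 4.0.16 (R 4.3.3, TMM, quasi-likelihood test, Benjamini-Hochberg over all genes, threshold 0.05). CPM used TMM library sizes. Standard errors were back-calculated from the F statistic. Pairs of members were compared by flipping signs over all 64 arrangements of the 6 libraries, with counts under 3 set to 3. Coding sequences were aligned with MAFFT 7.526. Gene starts and ends in the files matched RefSeq for all 10 members. The named genes were all members, TPS1 and TRE1, the called genes of the pathway lists, and the genes of the sorted domains. APL, LAC17, ACL5, CESA4, CESA7, OPS, CVP2, PDF1 and CDC20.2 were chosen after their values were seen. Members and lists were chosen with earlier results of these data known. Alternatives were DESeq2 1.42.0, other normalizations and filters, the 4 libraries of the authors' table, a term for that table, organelle genes kept, exon length, and leaving out each library.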

Additional observations from a re-analysis of the deposited data

How the results depend on the processing

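The number of TPP genes called (2) was 1 with library sizes only, with the 4 libraries of the authors' table, and when any single library was left out. In each case the call of TPPA was lost. With the filter at 1 read in 1 library it was 3, as TPPJ was called too. The number of all genes called (1554) was 2435 with DESeq2, 1022 with the 4 libraries, and 737 to 1480 when single libraries were left out. When single libraries were left out, the log2 fold change of TPPG ran from -0.75 (without X13) to 1.56 and that of TPPI from -0.18 to 0.034 (without X13). That of TRE1 ran from -0.37 to 0.55 (without X71), was 0.12 without X13, and was 0.36 with the 4 libraries and 0.066 with a term for the authors' table. The cause of these changes was not tested. DESeq2 called more of some marker lists than edgeR: 5 procambium (3), 4 epidermis (2), 3 dividing cell (1) and 4 sorted domain genes (2). Pathway genes called numbered 2 to 4 over the alternatives (3 as reported). The share of TPPA, TPPI and TPPJ ran from 79.5% to 83.9% (81.5%). Ordered pairs of members numbered 29 to 32 (29). A pair ordered in all 6 libraries stays ordered when libraries are left out, so those settings could not lower this count. Only exon length could, and it gave 29. TPPF and TPPG were not tested with the filter above 50 reads in 3 libraries. No paired analysis was possible because the labels give the libraries no replicate numbers and the column names in the count files share only number 3 between the groups (X74 and X71). The term for the authors' table separates these libraries from the other 4, and with it 2 TPP genes were called, as without it. TPPB and TPPC had too few reads to be tested.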
